A study of Mus musculus with 21 samples.

Results

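The leukocyte lineage marker genes described here are 39 genes that mark white blood cells, listed by lineage and looked up by gene name in the deposited gene count table. The table held 38 of the 39 among its 23713 genes. The listed name Epcam1 has no row and is not analysed here. The 38 genes were 5 markers carried by leukocytes in general, 15 of T cells, 2 of cytotoxic granules, 14 of myeloid cells, 1 of Langerhans cells and 1 of neutrophils. The rule goes by name and uses no measured value, but the list was drawn up with earlier results of these data known.

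The epidermis houses its own leukocytes between the keratinocytes. Langerhans cells are antigen-presenting cells of the myeloid lineage that carry langerin, the product of Cd207, and in the mouse they share the epidermis with resident gamma delta T cells, whose receptor uses the delta constant region Trdc. Conventional T cells carry an alpha beta receptor with the CD3 chains and either CD4 or CD8, and regulatory T cells, a CD4 subset that restrains immune responses, depend on the transcription factor Foxp3.

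RNA was sequenced in bulk from keratinocyte preparations of mouse tail skin, in which the epidermis had been scraped off the dermis and taken up as a strained cell suspension without sorting. Tumour epidermis (BCC, for basal cell carcinoma) came from 3 mouse models that the labels call SmoM2, Gnas-eKO and PKI, each with controls free of tumours (Con), and the tissue was taken 29, 42 and 57 days after tumour induction in that order. There were 3 Con and 4 BCC libraries a model, 21 in all. SmoM2 is the name of an activated form of the Hedgehog signal transducer Smoothened, Gnas is the gene for the alpha subunit of the stimulatory G protein, and PKI is the name of a peptide inhibitor of protein kinase A. The alleles, the promoter that drives them, the induction agent, the genotype of the controls and the age and sex of the mice are not given in the sources used here. Each model was a batch of its own (A, B and C), so model, batch and day cannot be told apart and BCC was compared with Con within a model. Column headers name SmoM2 BCC animals with another prefix than SmoM2 Con animals, and the part of this difference in the SmoM2 results was not tested. Nothing in the labels says that replicates are separate animals, though each column header carries an animal name of its own, so the p-values measure the spread between these libraries.

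Totals ran from 16645858 to 22251132 counts a library. Levels are in CPM, counts scaled by library size with edgeR's TMM factors, and 3 counts corresponded to 0.134 to 0.190 CPM. The 8 keratinocyte markers summed to between 26603 and 70610 CPM in a library, against 48.9 to 393 CPM for the 38 leukocyte genes together, so the markers of the labelled cell type were by far the more abundant. In bulk RNA, more cells of a type and more RNA per cell cannot be told apart. The library labelled PKI BCC 1 was the highest of its group for 29 of the 38 genes and PKI BCC 4 alone the lowest for 24. PKI Con 1 was the highest of its group for 26 of the 37 genes detected there. In Gnas-eKO, BCC 1 was the highest for 20 genes and BCC 3 for 14.

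The leukocyte genes were much higher in PKI BCC than in PKI Con and overlapped with Con, as a summed level, in the other models. Their summed level was 48.9, 58.6 and 83.7 CPM in the PKI Con libraries, from lowest to highest, and 199 to 393 CPM in PKI BCC, with a median of 265 CPM. In SmoM2 the sums overlapped, at 59.5 to 72.4 CPM in Con and 49.3 to 68.5 CPM in BCC. In Gnas-eKO they ran from 74.5 to 81.4 CPM in Con and from 72.3 to 145 CPM in BCC, where BCC 1 and BCC 3 lay above all Con libraries. A single gene, Itgam, weighs on these overlaps, since it is in the sums and was lower in every BCC library of both models. Itgam ran from 9.62 to 16.9 CPM in SmoM2 Con and 3.23 to 5.29 CPM in BCC. In Gnas-eKO it ran from 9.32 to 17.9 CPM in Con and 2.96 to 7.07 CPM in BCC. The sums were not taken without Itgam. BCC and Con were compared with edgeR's quasi-likelihood test over all genes of a model, and a gene was called at a Benjamini-Hochberg adjusted p under 0.05. In PKI, 36 of the 38 genes passed the filter on low counts, of which 30 were called higher and 0 lower. Over all 16397 genes tested in PKI, 34.5% were called, 18.7% higher and 15.8% lower. The median log2 fold change was 2.65 over the 36 genes and -0.0012 over all genes tested. The filter asked for about 10 counts (0.509 CPM in PKI) in at least 3 libraries. Of the 36 genes, 21 reached this through BCC libraries, as did 18 of the 30 called, so they were tested because they were high in BCC and the count and median carry no weight as support. Of the 30, 6 had at most 3 counts over the Con libraries. In SmoM2, 23 of the 38 genes were tested, of which 2 were called higher (Lck, Cd68) and 1 lower (Itgam), where 29.7% of all genes were called, 16.2% higher and 13.5% lower. The median there was 0.25 against 0.00054 over all genes. Of the 23 genes, 6 passed the filter only with BCC libraries, so this median carries no weight as support. In Gnas-eKO, 26 genes were tested and 0 were called by edgeR, 7 having an unadjusted p under 0.05, where 1.63% of all genes were called, 1.46% higher and 0.165% lower. With so few genes called at all in Gnas-eKO, a count of 0 is near the background and is no result about these genes. DESeq2 called 0 of them higher and 1, Itgam, lower. The Gnas-eKO median was 0.56 against 0.020 over all genes, and it carries no weight as support either, since 5 of the 26 genes passed the filter only with BCC libraries. All BCC libraries lay above all Con libraries for 30 of the 38 genes in PKI and below them for 0, where 17.5% of the genes in the table lay above and 15.8% below. In SmoM2 it was 5 above and 1 below (15.3% and 14.6% of the table), and in Gnas-eKO 5 above and 1 below (7.99% and 7.63%). Without PKI BCC 1, 29 genes were called higher in PKI with a median of 2.47, and without PKI Con 1 it was 30 genes with a median of 3.30.

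**Figure D1:**
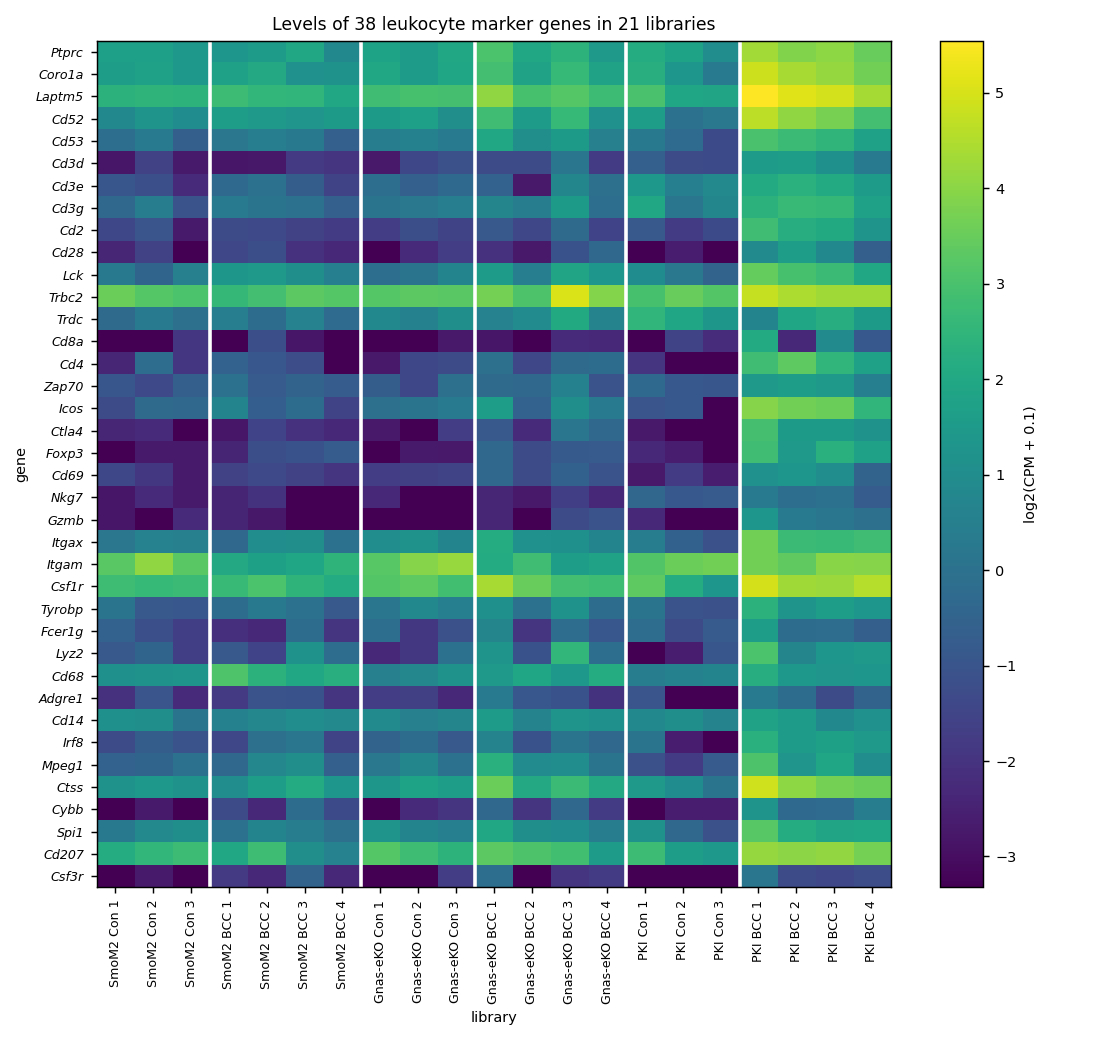
Level of the 38 leukocyte genes (rows, grouped by lineage) in the 21 libraries (columns), as log2(CPM + 0.1), with white lines between groups. The 4 PKI BCC columns at the right are brighter than the 3 PKI Con columns for 30 genes and brighter than all 17 other columns for 17 genes. The Itgam row is dimmer in SmoM2 BCC and Gnas-eKO BCC than in the remaining groups.

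The 5 general leukocyte genes were all called higher in PKI BCC, with log2 fold changes of 2.26 to 3.20. Ptprc encodes CD45, the tyrosine phosphatase on the surface of nucleated blood cells, and lies at chr1:138062861-138175708 (mm10). It stood at 4.35, 3.42 and 1.93 CPM in PKI Con 1 to 3 and at 19.9, 14.6, 16.4 and 11.0 CPM in PKI BCC 1 to 4. Every BCC library lay above every Con library (log2 fold change and its SE 2.26 ± 0.29, edgeR adjusted p = 0.00078; SEs are given in this form throughout). In SmoM2 Ptprc was at 3.08, 3.10 and 2.54 CPM in Con and at 2.45, 2.79, 3.76 and 1.66 CPM in BCC, so the groups overlapped. In Gnas-eKO it was at 3.44, 2.86 and 3.79 CPM in Con and at 8.11, 3.85, 5.24 and 2.66 CPM in BCC, where BCC 1 was the highest and BCC 4 lay below all Con libraries (log2 fold change 0.59 ± 0.38, edgeR adjusted p = 0.44).

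Coro1a encodes coronin 1A, an actin-binding protein of leukocytes. In PKI it read 4.70, 2.40 and 1.14 CPM in Con and 29.0, 20.8, 17.4 and 12.6 CPM in BCC (log2 fold change 2.85 ± 0.47, edgeR adjusted p = 0.0036). Laptm5, a lysosomal membrane protein of blood cells, read 7.84, 3.73 and 3.55 CPM in Con and 46.6, 34.2, 30.4 and 20.4 CPM in BCC (2.70 ± 0.38 on the log2 scale). The tetraspanin gene Cd53 read 1.11, 0.759 and 0.301 CPM in Con and 7.88, 6.50, 5.54 and 3.23 CPM in BCC (2.98 ± 0.44). For these genes too, no BCC library fell into the Con range, and BCC 1 was the highest and BCC 4 the lowest of their group. Cd52, a small surface glycoprotein of lymphocytes and monocytes, went from 3.03, 0.886 and 1.08 CPM to 25.3, 16.7, 13.2 and 7.29 CPM (3.20 ± 0.57, edgeR adjusted p = 0.0050). It was also the single general marker whose SmoM2 groups did not overlap, at 1.65 to 2.30 CPM in Con and 2.36 to 2.95 CPM in BCC, without passing the test there (edgeR adjusted p = 0.14). Without the library PKI Con 1 the log2 fold changes of Coro1a and Cd52 came to 3.50 and 3.98.

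Of the 15 T cell genes, 14 were tested in PKI and 13 of them were called higher, with a median log2 fold change of 3.19, where 18.7% of all genes were called higher. Of the 14, 9 passed the filter only with BCC libraries, so this count and median are a description. Their rise differed widely in size. The genes for the CD3 chains, which carry the signal of the T cell receptor, were among the smaller. Cd3e was at 2.58, 1.33 and 1.69 CPM in PKI Con and at 4.19, 4.95, 4.15 and 2.85 CPM in BCC (log2 fold change 1.12 ± 0.30, edgeR adjusted p = 0.018). Cd3g was at 3.79, 1.01 and 1.57 CPM in Con and at 5.12, 6.14, 5.89 and 3.29 CPM in BCC (1.26 ± 0.42, edgeR adjusted p = 0.046). Con 1 lay above BCC 4 for Cd3g, so the groups overlapped, while for Cd3e they did not. Cd3d was at 0.556, 0.316 and 0.301 CPM in Con and at 2.92, 2.94, 2.10 and 1.15 CPM in BCC (2.52 ± 0.45, edgeR adjusted p = 0.0029). The Cd3e call was lost without PKI Con 2, PKI Con 3 or PKI BCC 2 (edgeR adjusted p up to 0.066) and in the joint fit of all 21 libraries (0.12), and the Cd3g call without PKI Con 2, PKI Con 3, PKI BCC 1, PKI BCC 2 or PKI BCC 3 (highest 0.15). Without PKI Con 1 the Cd3g log2 fold change was 1.99.

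Constant regions of the receptor gave mixed results. Trbc2, a constant region of the beta chain used by alpha beta T cells, was at 7.74, 11.2 and 8.85 CPM in PKI Con and at 27.3, 21.8, 19.5 and 19.1 CPM in BCC (1.26 ± 0.17 on the log2 scale, edgeR adjusted p = 0.00095). Trbc1, the other beta constant region and not among the 38, was at 1.77, 2.97 and 2.53 CPM in Con and at 4.81, 7.17, 3.62 and 2.52 CPM in BCC, which overlapped and was not called (0.92 ± 0.37, edgeR adjusted p = 0.080). Trdc, the constant region of the delta chain (chr14:54142851-54148868), was at 5.56, 3.61 and 2.47 CPM in Con and at 1.48, 3.66, 4.55 and 2.74 CPM in BCC. Its groups overlapped, the library highest for most leukocyte genes, BCC 1, was its lowest, and the log2 fold change was -0.31 ± 0.39 (edgeR adjusted p = 0.58). Without PKI Con 1 the sign turned, to 0.05 (edgeR adjusted p = 0.94). Trdc did not pass the test in the other models either. It read 0.735, 1.15 and 0.865 CPM in SmoM2 Con, 1.27, 0.771, 1.44 and 0.755 CPM in SmoM2 BCC, 1.67, 1.40 and 2.05 CPM in Gnas-eKO Con and 1.42, 1.82, 4.13 and 1.45 CPM in Gnas-eKO BCC. Exons of Trdc overlap Trdv5 and Gm43434 on the other strand, and whether the counting used the strand is not stated in the sources used here.

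Among the other T cell surface and signalling genes, Cd2, an adhesion receptor, read 0.455, 0.190 and 0.301 CPM in PKI Con and 6.96, 4.54, 4.06 and 2.30 CPM in BCC (log2 fold change 3.78 ± 0.48, edgeR adjusted p = 0.00062). Lck, the kinase that phosphorylates the CD3 chains, read 1.87, 1.08 and 0.602 CPM in Con and 10.7, 7.64, 6.56 and 3.84 CPM in BCC (2.59 ± 0.45, edgeR adjusted p = 0.0029). Zap70, the kinase that docks to them, read 0.708, 0.443 and 0.421 CPM in Con and 2.66, 2.94, 2.59 and 1.32 CPM in BCC (2.17 ± 0.39, edgeR adjusted p = 0.0030). BCC lay above Con in every library for all of these. Lck was also called in SmoM2, from 1.10, 0.632 and 1.35 CPM in Con to 2.49, 2.70, 2.04 and 1.31 CPM in BCC (1.06 ± 0.36, edgeR adjusted p = 0.049). That call rests on narrow ground, since BCC 4 fell below Con 3 and the call was lost when any of SmoM2 Con 1, Con 2, BCC 1, BCC 2 or BCC 3 was left out (adjusted p up to 0.16). In Gnas-eKO, Lck was at 0.811, 0.952 and 1.48 CPM in Con and at 2.79, 1.28, 3.55 and 2.41 CPM in BCC, which did not pass the test (1.23 ± 0.42, edgeR adjusted p = 0.16), but did without BCC 2 (0.037).

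A further 4 T cell genes that rose had at most 3 counts over the PKI Con libraries, and for these the ratio of summed counts is given with its exact 95% interval, which covers counting error only. Cd4 (chr6:124864692-124888221), the coreceptor of helper and regulatory T cells, read 0.152, 0 and 0 CPM in PKI Con, 3 counts in all, and 6.96, 10.1, 5.67 and 3.23 CPM in BCC, 518 counts in all. The ratio was 113 (38.5 to 551; edgeR adjusted p = 0.00045). Foxp3 (chrX:7573644-7595245) read 0.101, 0.0633 and 0 CPM in Con and 6.96, 2.68, 4.87 and 3.23 CPM in BCC, a ratio of 77.8 (26.4 to 379; edgeR adjusted p = 0.00027). Ctla4, an inhibitory receptor that regulatory T cells carry, had 1 count in Con and stood at 7.52, 2.73, 2.72 and 2.25 CPM in BCC, a ratio of 198 (35.3 to 7850; edgeR adjusted p = 0.00059). Cd28, the costimulatory receptor that Ctla4 competes with, also had 1 count in Con and stood at 1.79, 2.99, 1.65 and 0.548 CPM in BCC (ratio 91.8, interval 16.2 to 3650; edgeR adjusted p = 0.0018). All 4 BCC libraries were above all Con libraries for these genes, and the widths of the intervals show how little the Con counts fix the size of the rise.

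Icos, an inducible costimulator of activated T cells, read 0.405, 0.443 and 0 CPM in PKI Con and 15.1, 12.6, 11.5 and 5.59 CPM in BCC (log2 fold change 5.28 ± 0.63, edgeR adjusted p = 0.00078). Cd69, an early activation antigen, read 0.0506, 0.190 and 0.0602 CPM in Con and 2.15, 2.43, 1.92 and 0.603 CPM in BCC (4.13 ± 0.68, edgeR adjusted p = 0.0021; 4.87 without PKI Con 2). Cd8a, the coreceptor of cytotoxic T cells, was uneven: it read 0, 0.253 and 0.120 CPM in Con and 4.19, 0.103, 1.79 and 0.439 CPM in BCC. BCC 2 fell inside the Con range, and Cd8a did not pass the filter (edgeR adjusted p = 0.13 with no filter). Per kilobase of annotated exon, the mean level in PKI BCC was 1.61 CPM for Cd4 and 0.448 CPM for Cd8a, the latter carried mostly by BCC 1.

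Foxp3 stood above Con at trace level in the other models as well. It read 0, 0.0575 and 0.0541 CPM in SmoM2 Con and 0.0907, 0.337, 0.371 and 0.504 CPM in SmoM2 BCC, 2 against 27 counts, a ratio of 9.24 (2.32 to 80.2). In Gnas-eKO it read 0, 0.0560 and 0.0512 CPM in Con and 0.687, 0.321, 0.476 and 0.483 CPM in BCC, 2 against 40 counts, a ratio of 14.3 (3.70 to 122). All Con libraries and SmoM2 BCC 1 were below the level of 3 counts, so SmoM2 BCC 1 cannot be told from Con; the other 7 BCC libraries were above it. The gene did not pass the filter in either model. With no filter its edgeR adjusted p was 0.049 in SmoM2 and 0.065 in Gnas-eKO, and in a fit of all 21 libraries 0.013 and 0.0047. Exons of Foxp3 overlap Flicr on the same strand and Ccdc22, Gm36995 and Ppp1r3f on the other. Cd4, by contrast, overlapped in both models, at 0.0919, 0.804 and 0.162 CPM in SmoM2 Con, 0.589, 0.433, 0.325 and 0 CPM in SmoM2 BCC, 0.0507, 0.280 and 0.307 CPM in Gnas-eKO Con and 0.870, 0.268, 0.741 and 0.773 CPM in Gnas-eKO BCC.

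**Figure D2:**
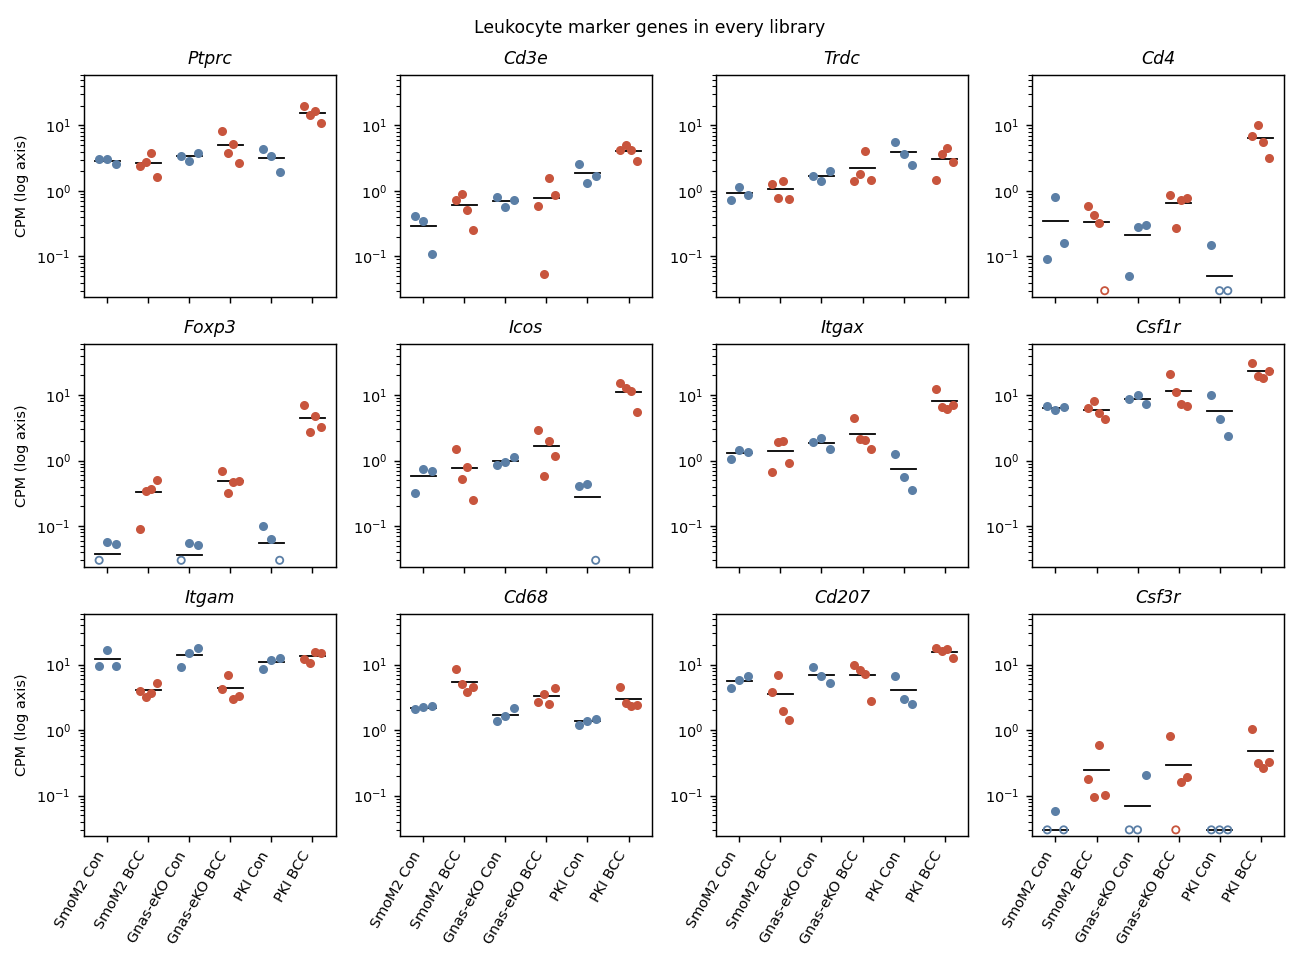
CPM (log axis) of 12 leukocyte genes in every library, blue for Con and red for BCC, with a line at each group mean; open circles at the bottom mark libraries with 0 counts. Ptprc, Cd4, Foxp3 and Icos stand apart in PKI BCC, Trdc overlaps in every model, and Itgam is lower in SmoM2 BCC and Gnas-eKO BCC but not in PKI BCC.

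The cytotoxic granule genes were low throughout. Gzmb, which encodes the protease granzyme B, had 2 counts over PKI Con and read 2.46, 1.14, 1.03 and 0.877 CPM in PKI BCC, a ratio of 35.7 (9.66 to 299; edgeR adjusted p = 0.0022). Nkg7, a granule membrane protein of T and natural killer cells, ran from 0.443 to 0.658 CPM in PKI Con and from 0.493 to 1.18 CPM in BCC, which overlapped (log2 fold change 0.68 ± 0.41, edgeR adjusted p = 0.22). In SmoM2 and Gnas-eKO neither gene passed the filter, and their summed level was at most 0.529 CPM in a library.

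All 14 myeloid genes were tested in PKI, and 10 were called higher, with a median log2 fold change of 2.36 over the 14, where 18.7% of all genes were called higher. Here too 9 of the 14 passed the filter only with BCC libraries, so this count and median are a description. The neighbouring integrin genes Itgax and Itgam behaved differently. Itgax (chr7:128129547-128150657) encodes CD11c, a marker of dendritic and Langerhans cells, and read 1.26, 0.569 and 0.361 CPM in PKI Con and 12.5, 6.50, 6.21 and 6.96 CPM in BCC (log2 fold change 3.43 ± 0.44, edgeR adjusted p = 0.00074; 4.11 without PKI Con 1). Itgam (chr7:128062640-128118491) encodes CD11b, a marker of monocytes, neutrophils and many macrophages, and read 8.65, 11.7 and 12.6 CPM in PKI Con and 12.4, 10.4, 15.4 and 15.0 CPM in BCC, which overlapped (0.29 ± 0.18, edgeR adjusted p = 0.25). In SmoM2 Itgam fell, from 9.65, 16.9 and 9.62 CPM in Con to 3.99, 3.23, 3.66 and 5.29 CPM in BCC, with no overlap (-1.56 ± 0.24, edgeR adjusted p = 0.0012). In Gnas-eKO it read 9.32, 15.0 and 17.9 CPM in Con and 4.31, 7.07, 2.96 and 3.33 CPM in BCC, again without overlap (-1.65 ± 0.34), and missed the threshold at an edgeR adjusted p of 0.053. It passed there with DESeq2 (2.5e-04), with no filter (0.039) and without BCC 2 (0.0055). Itgam shares exon bases on the same strand with Gm49368, so its counts could be divided between them.

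Other myeloid genes that rose in PKI serve the lineage in different ways. Csf1r, the receptor for the growth factors that maintain macrophages and Langerhans cells, read 10.1, 4.37 and 2.41 CPM in Con and 31.2, 19.5, 18.3 and 23.4 CPM in BCC (log2 fold change 2.04 ± 0.45, edgeR adjusted p = 0.013; 2.78 without PKI Con 1). Ctss, the lysosomal protease cathepsin S used in antigen presentation, read 2.63, 1.90 and 0.963 CPM in Con and 30.2, 16.2, 12.8 and 11.5 CPM in BCC (3.27 ± 0.47, edgeR adjusted p = 0.0018). Tyrobp, a signalling adaptor of myeloid and natural killer cells, read 0.961, 0.380 and 0.361 CPM in Con and 5.06, 2.32, 2.99 and 2.41 CPM in BCC (2.47 ± 0.45, edgeR adjusted p = 0.0034; 3.10 without PKI Con 1). No BCC library of these genes was as low as any Con library. The transcription factor genes Spi1, encoding PU.1, and Irf8 had their highest Con level in PKI Con 1. Spi1 read 2.17, 0.696 and 0.361 CPM in Con and 9.26, 4.44, 3.53 and 3.62 CPM in BCC (2.25 ± 0.61, edgeR adjusted p = 0.022). Irf8 read 0.961, 0.0633 and 0 CPM in Con and 4.81, 2.79, 3.17 and 2.69 CPM in BCC (3.19 ± 0.82, edgeR adjusted p = 0.018). Without PKI Con 1 the log2 fold change of Spi1 was 3.30, and Irf8 kept 1 count in the Con libraries, too few to fix the size of its rise. The Spi1 call was lost without PKI Con 2 or PKI Con 3 (edgeR adjusted p up to 0.082) and the Irf8 call without PKI Con 2 (0.057).

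Lyz2, the lysozyme of macrophages and neutrophils, read 0, 0.0633 and 0.421 CPM in PKI Con and 8.08, 1.55, 2.41 and 2.63 CPM in BCC (log2 fold change 4.52 ± 0.99, edgeR adjusted p = 0.0098). This size depended on single libraries, being 3.87 without PKI Con 1, 6.73 without PKI Con 3 and 3.77 without PKI BCC 1. Mpeg1, a pore-forming protein of macrophages, read 0.354, 0.190 and 0.482 CPM in Con and 8.24, 2.37, 3.66 and 1.92 CPM in BCC (3.55 ± 0.64, edgeR adjusted p = 0.0035; 2.93 without PKI BCC 1). Cybb, a subunit of the phagocyte NADPH oxidase, had 2 counts in PKI Con and read 2.30, 0.722, 0.759 and 1.26 CPM in BCC, a ratio of 32.5 (8.75 to 272; edgeR adjusted p = 0.0024). In SmoM2 Cybb had 1 count in Con and 32 in BCC (ratio 21.9, interval 3.66 to 892), with BCC 2, at 0.0963 CPM, too low to be told from Con. It did not pass the filter there and had an edgeR adjusted p of 0.024 with no filter.

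Cd68, a lysosomal glycoprotein of macrophages (chr11:69664213-69666153), was the single leukocyte gene whose BCC libraries lay above all Con libraries in each of the 3 models and that was tested in all of them. It read 2.07, 2.24 and 2.32 CPM in SmoM2 Con and 8.43, 5.11, 3.76 and 4.58 CPM in SmoM2 BCC (log2 fold change 1.32 ± 0.29, edgeR adjusted p = 0.0070). In PKI it read 1.21, 1.39 and 1.50 CPM in Con and 4.55, 2.58, 2.37 and 2.41 CPM in BCC (1.13 ± 0.32, edgeR adjusted p = 0.021), a call that was lost without any 1 of the Con libraries (adjusted p up to 0.070). In Gnas-eKO it read 1.37, 1.62 and 2.20 CPM in Con and 2.70, 3.59, 2.54 and 4.39 CPM in BCC, which did not pass (0.95 ± 0.32, edgeR adjusted p = 0.15). The remaining 4 myeloid genes, Itgam among them, did not pass in PKI. Adgre1, which encodes the macrophage antigen F4/80, read 0.405, 0 and 0 CPM in Con and 1.13, 0.774, 0.312 and 0.603 CPM in BCC (2.20 ± 0.92, edgeR adjusted p = 0.094; 0.012 without PKI Con 1). The lipopolysaccharide coreceptor gene Cd14 ran from 1.44 to 2.02 CPM in Con and from 1.65 to 3.32 CPM in BCC (0.55 ± 0.31, edgeR adjusted p = 0.19). Fcer1g, the common gamma chain of Fc receptors, ran from 0.316 to 0.809 CPM in Con and from 0.548 to 3.02 CPM in BCC (1.24 ± 0.67, edgeR adjusted p = 0.18).

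Cd207 (chr6:83671215-83677857), which encodes the Langerhans lectin langerin, was called higher in PKI, from 6.73, 3.04 and 2.53 CPM in Con to 17.6, 15.9, 17.1 and 12.8 CPM in BCC (log2 fold change 1.95 ± 0.32, edgeR adjusted p = 0.0024). The 4 BCC libraries all lay above the highest Con library. In SmoM2 it read 4.37, 5.75 and 6.65 CPM in Con and 3.81, 6.84, 1.99 and 1.41 CPM in BCC, where BCC 2 was the highest of the 7 libraries and BCC 3 and BCC 4 the lowest (-0.65 ± 0.49, edgeR adjusted p = 0.37; 0.041 without BCC 2). In Gnas-eKO it read 9.17, 6.78 and 5.17 CPM in Con and 9.71, 8.19, 7.14 and 2.80 CPM in BCC, which overlapped. Epcam, an adhesion molecule that Langerhans cells share with hair follicle and basal keratinocytes, was not among the 39 names. It ran from 73.0 to 108 CPM in PKI Con and from 117 to 193 CPM in PKI BCC and was called higher (0.81 ± 0.19, edgeR adjusted p = 0.012). It did not overlap in the other models either, at 106 to 126 CPM in SmoM2 Con and 169 to 234 CPM in SmoM2 BCC (0.76 ± 0.12, edgeR adjusted p = 0.0014), and at 96.0 to 128 CPM in Gnas-eKO Con and 137 to 360 CPM in Gnas-eKO BCC (1.25 ± 0.30, not called, edgeR adjusted p = 0.079). Csf3r, the receptor for granulocyte colony-stimulating factor and the neutrophil marker of the list, had 0 counts in all 3 PKI Con libraries and read 1.02, 0.310, 0.268 and 0.329 CPM in BCC. Against 3 counts over the group this is at least 8.31-fold higher. The gene did not pass the filter, and with no filter its edgeR adjusted p was 0.0075. In SmoM2 Csf3r had 1 against 21 counts, a ratio of 14.4 (2.31 to 594), with BCC 3 the highest at 0.603 CPM, and passed neither with no filter (edgeR adjusted p = 0.076) nor in the joint fit (0.13).

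**Figure D3:**
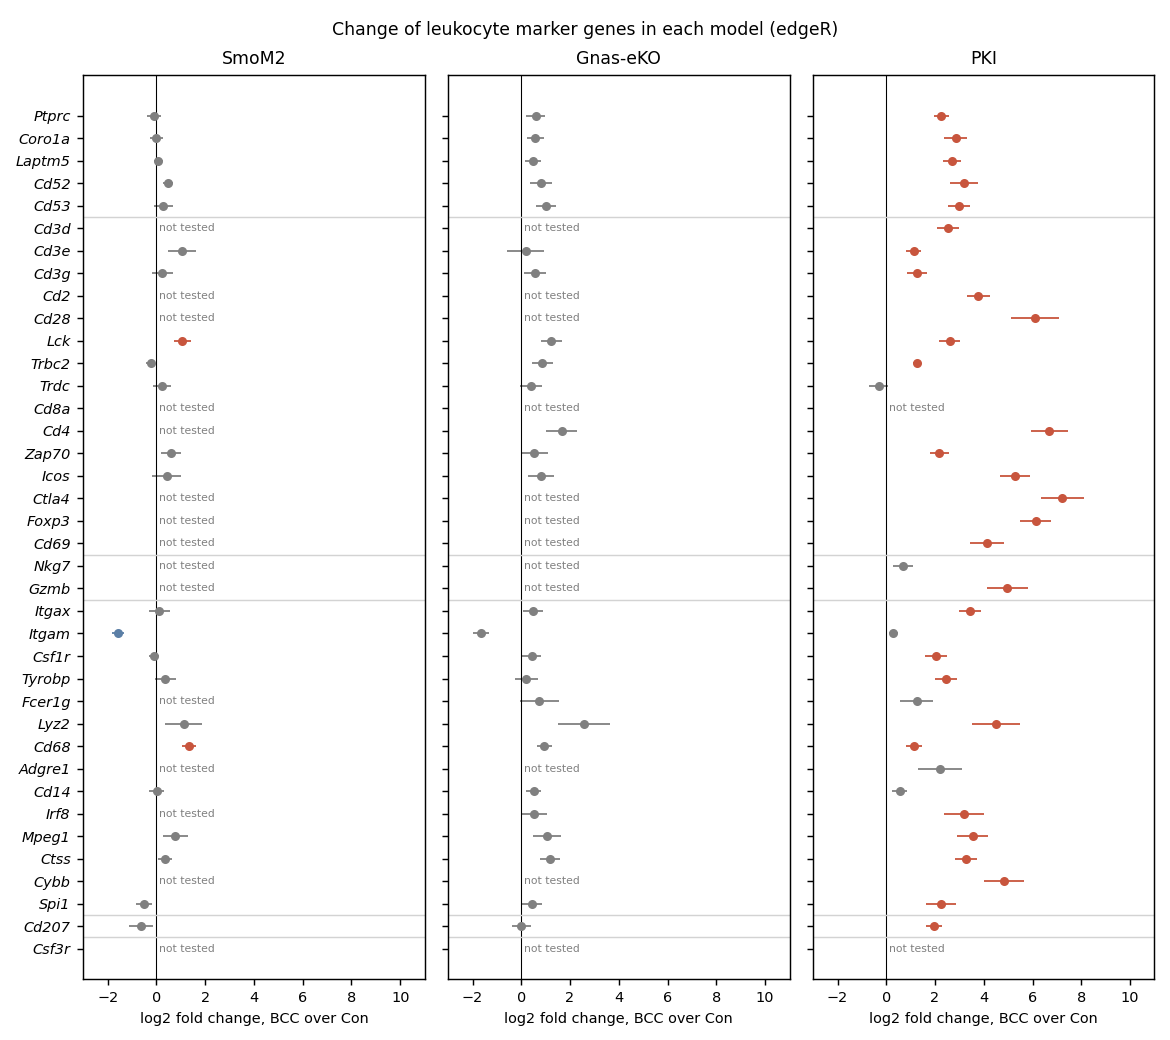
Log2 fold change of BCC over Con (points) with its SE (lines) from edgeR for each leukocyte gene in each model, coloured where called (red higher, blue lower) and grey where not; genes below the filter are marked as not tested. Of the points, 3 are coloured in SmoM2 (Lck and Cd68 above 1, Itgam below -1), 0 in Gnas-eKO and 30 in PKI, all of these to the right of 1; the points of Cd28, Cd4, Ctla4, Foxp3, Gzmb and Cybb in PKI rest on at most 3 Con counts.

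The DNA before the RefSeq start of these genes was read for the letters GAGGAA, the core of a site for PU.1, the factor that Spi1 encodes, on either strand (TTCCTC on the strand shown). The promoter table, from RefSeq on GRCm38.p6, held 32 promoters of 25 of the 38 genes. In the 250 bases before the start, 14 of the 32 (43.8%) had at least 1 match, against 23.3% of all 32851 promoters of that length. This is a description of letters, not of binding. The promoters of 4 genes are shown because Laptm5, Itgax and Cd207 rose in PKI while the neighbour of Itgax, Itgam, did not, with matches in capitals; they lie at chr4:130913066-130913315 (plus strand), chr7:128129300-128129549 (plus), chr7:128062390-128062639 (plus) and chr6:83677858-83678107 (minus), in the order Laptm5, Itgax, Itgam, Cd207.
Laptm5: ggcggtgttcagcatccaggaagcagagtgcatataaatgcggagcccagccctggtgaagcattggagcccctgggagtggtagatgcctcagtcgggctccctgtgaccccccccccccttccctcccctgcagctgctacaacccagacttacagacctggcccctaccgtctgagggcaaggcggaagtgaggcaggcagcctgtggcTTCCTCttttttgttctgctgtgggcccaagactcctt
Itgax: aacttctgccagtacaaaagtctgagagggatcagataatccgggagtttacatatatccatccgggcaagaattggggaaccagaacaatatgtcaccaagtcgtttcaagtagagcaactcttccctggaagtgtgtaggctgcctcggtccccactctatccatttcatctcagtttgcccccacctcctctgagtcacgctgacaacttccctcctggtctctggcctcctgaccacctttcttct
Itgam: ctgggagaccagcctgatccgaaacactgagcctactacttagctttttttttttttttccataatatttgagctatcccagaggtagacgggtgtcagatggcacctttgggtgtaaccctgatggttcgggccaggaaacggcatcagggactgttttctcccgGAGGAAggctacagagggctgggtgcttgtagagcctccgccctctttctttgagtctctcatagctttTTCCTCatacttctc
Cd207: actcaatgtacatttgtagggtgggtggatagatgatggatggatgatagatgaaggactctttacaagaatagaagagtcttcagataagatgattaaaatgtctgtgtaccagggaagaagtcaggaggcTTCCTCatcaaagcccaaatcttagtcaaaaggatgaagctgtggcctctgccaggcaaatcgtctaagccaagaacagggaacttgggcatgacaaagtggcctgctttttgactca
GENCODE starts Laptm5 at 130913125, inside its window, so its match lies within the gene by that annotation. Laptm5 and Cd207 each held 1 match and Itgam 2, while the Itgax stretch held 0, which says only that these letters are not in this window.

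Whether the BCC change differed between models was tested as an interaction on the libraries of both models. Both contrasts with PKI use the same PKI libraries. The change in PKI exceeded that in SmoM2 for 21 of the 36 genes tested and was below it for 0, where 24.9% of all genes were called, 12.6% higher and 12.3% lower. The median log2 difference was 2.60 over the 36 genes and -0.0099 over all genes. Of the 36, 11 passed the filter only with the PKI BCC libraries, 6 of the 21 called among them, so this count and median carry no weight as support. All 5 general leukocyte genes, 7 of 14 T cell genes, 7 of 14 myeloid genes, Gzmb and Cd207 were among them, and 14 of the 21 calls held under every alternative and left-out library that was run. Those of Gzmb, Mpeg1, Cd28, Tyrobp, Ctla4, Cd4 and Cd69 did not: each was lost without at least 1 of SmoM2 Con 1 to 3. The Gzmb call was also lost with the joint fit and with the replicate block. Its adjusted p was up to 0.071 over the alternatives with all libraries and up to 0.24 in edgeR with a library left out. The count ran from 16 to 24 over left-out libraries. The log2 difference was 2.37 ± 0.41 for Ptprc (edgeR adjusted p = 0.0011), 4.85 for Icos (0.0028) and 2.60 ± 0.64 for Cd207 (0.011). The Itgam difference was 1.85 ± 0.32 (0.0011), where Itgam fell in SmoM2 and did not pass the test in PKI. Against Gnas-eKO, the PKI change was larger for 10 of the 36 genes, with 0 smaller, where 9.06% of all genes were called, 4.49% higher and 4.57% lower. These were Ptprc, Coro1a, Laptm5, Cd2, Cd4, Icos, Cd69, Itgax, Itgam and Cd207, and the median log2 difference was 1.96 over the 36 genes and -0.037 over all, with 10 of the 36 and 2 of the 10 admitted only by the PKI BCC libraries. Of these 10 calls, those of Icos, Itgax and Itgam alone held under every alternative and every left-out library that was run; the count ran from 4 (without Gnas-eKO Con 2 or PKI Con 3) to 16 (without Gnas-eKO BCC 1). The changes in Gnas-eKO and SmoM2 gave no call of a difference for the 28 genes tested (0 called by edgeR, 1 with an unadjusted p under 0.05, 0 called by DESeq2), where 0.175% of all genes were called, 0.0758% higher and 0.0991% lower. For Foxp3 the difference between PKI and SmoM2 (3.13 ± 1.73, edgeR adjusted p = 0.20) and between PKI and Gnas-eKO (2.53 ± 1.44, adjusted p = 0.29) did not pass.

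Set against Ptprc in the same library, the PKI leukocyte genes did not all move in step. The ratio of the CPM of a gene to that of Ptprc was taken for the 11 other genes with at least 1 CPM in every PKI library, a rule set after the values were seen that leaves out Cd4, Foxp3, Icos and other genes near 0 in Con. Trdc went from a ratio of 1.06 to 1.28 in Con to 0.0746 to 0.278 in BCC, and Itgam from 1.99 to 6.56 to 0.622 to 1.37. The ratio of Cd3e went from 0.389 to 0.875 in Con to 0.211 to 0.340 in BCC. Cd14, Cd68 and Trbc2 also had lower ratios in every BCC library than in any Con library. Laptm5 had higher ones, at 1.09 to 1.84 in Con and 1.86 to 2.35 in BCC. The ratios of Cd207 (0.889 to 1.55 in Con, 0.887 to 1.16 in BCC), Csf1r (1.25 to 2.31 and 1.12 to 2.13), Coro1a and Cd3g overlapped. These ratios are descriptions without a test, and all share the Ptprc value of their library.

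**Figure D4:**
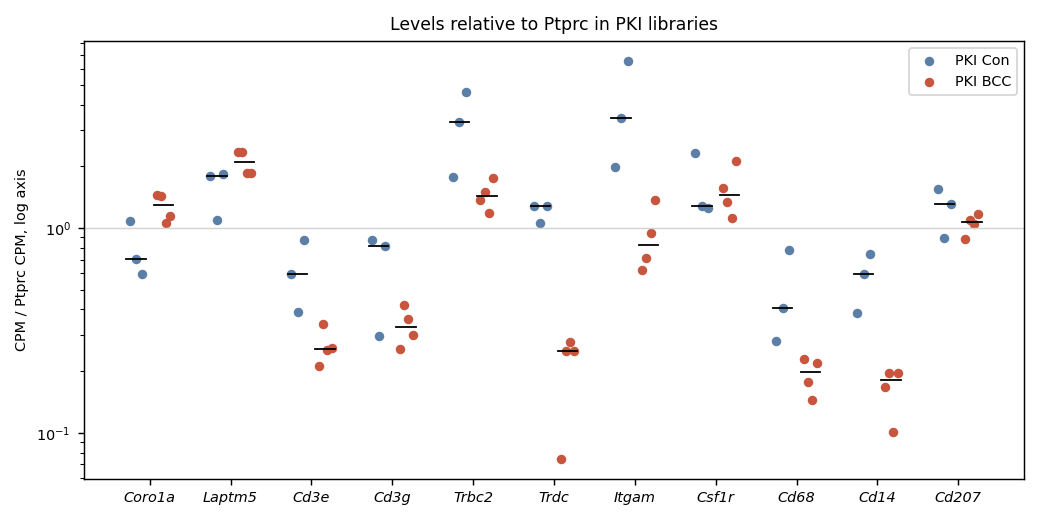
Ratio of the CPM of 11 genes to that of Ptprc in the 3 PKI Con (blue) and 4 PKI BCC (red) libraries, on a log axis, with a line at each group median. Trdc, Itgam, Cd3e, Cd68, Cd14 and Trbc2 are lower in BCC, Laptm5 higher, and Coro1a, Cd3g, Csf1r and Cd207 overlap.

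Further genes of the same lineages, from companion lists, were tested in the same way in PKI, where 18.7% of all genes were called higher and 15.8% lower. Some passed the filter only with BCC libraries: 3 of the 7 T cell genes called higher, 3 of 5 regulatory and checkpoint genes, 4 of 5 Langerhans and dendritic genes and 5 of 5 macrophage and monocyte genes. Of 12 other T cell genes tested, 7 were higher and 0 lower, among them Trac, the alpha chain constant region, at 0.303, 0.190 and 0.0602 CPM in Con and 6.04, 4.95, 4.02 and 1.86 CPM in BCC (log2 fold change 4.44 ± 0.57, edgeR adjusted p = 0.00066). All PKI BCC libraries lay below all PKI Con libraries for 1 gene of this list, Cd7, at 1.33 to 2.65 CPM in Con and 1.03 to 1.14 CPM in BCC. Trdv4, a delta chain variable segment, overlapped, at 1.01 to 2.11 CPM in PKI Con and 0.256 to 1.29 CPM in PKI BCC. In SmoM2, 3 of 8 such T cell genes were called higher and 1 lower, where 16.2% of all genes were called higher and 13.5% lower. Of the 8, 3 passed the filter only with BCC libraries, as did 2 of the 3 called higher, so this count is a description. Thy1, a surface antigen of mouse T cells that other skin cells can carry, fell in SmoM2 from 106 to 137 CPM in Con to 41.8 to 56.0 CPM in BCC (-1.23 ± 0.12, edgeR adjusted p = 6.8e-05). The SmoM2 sum of the 13 genes went from 118 to 146 CPM to 62.0 to 77.8 CPM. Most of it was Thy1 in every SmoM2 library, so the sum does not describe the other genes. In Gnas-eKO Thy1 did not overlap either, at 128 to 135 CPM in Con and 22.4 to 96.5 CPM in BCC, and was not called. The sum there went from 141 to 149 CPM to 53.0 to 111 CPM. Trac was higher in SmoM2, at 0.216 to 0.575 CPM in Con and 1.30 to 1.61 CPM in BCC (2.03 ± 0.39, edgeR adjusted p = 0.0038). Of 7 regulatory and checkpoint genes, 5 were higher and 1 lower: Il2ra, the high-affinity interleukin-2 receptor chain, rose (4.00 ± 0.58, edgeR adjusted p = 0.0013) and Ikzf2, the transcription factor Helios, fell (-1.11 ± 0.21, edgeR adjusted p = 0.0040). Of 6 Langerhans and dendritic genes, 5 were higher and 0 lower, Ly75, an endocytic receptor of these cells, by 3.76 ± 0.37 on the log2 scale (edgeR adjusted p = 0.00024). Of 5 such genes tested in SmoM2, 3 were higher (Epcam, Ly75 and Cd83) and 0 lower, with 2 of the 5 and 1 of the 3 admitted by the filter only with BCC libraries. Ly75 was at 1.15 to 1.38 CPM in SmoM2 Con and 2.22 to 6.12 CPM in SmoM2 BCC (1.68 ± 0.36, edgeR adjusted p = 0.0063). In Gnas-eKO it was at 1.02 to 1.42 CPM in Con and 2.30 to 13.8 CPM in BCC and was not called (adjusted p = 0.090 with edgeR). Flt3, the receptor that dendritic precursors need, had 0 counts in PKI Con and 121 in PKI BCC, at least 26.5-fold higher against 3 counts over the group. Of 7 macrophage and monocyte genes, 5 were higher and 1 lower: the complement gene C1qa rose (3.64 ± 0.50, edgeR adjusted p = 0.00090) and the Fc receptor gene Fcgr3 fell (-1.97 ± 0.61, edgeR adjusted p = 0.037, groups overlapping). In SmoM2, 2 of 4 such genes were called higher (Mertk, Ly6c2) and 1 lower. Of the 2 called higher, 1, Ly6c2, passed the filter only with BCC libraries. Fcgr3 fell in SmoM2 (-3.05 ± 0.39, edgeR adjusted p = 0.00050), and Mertk, a receptor for the uptake of dead cells, rose from 7.19 to 13.1 CPM in Con to 24.3 to 28.3 CPM in BCC (1.55 ± 0.20, edgeR adjusted p = 0.00050). Mertk did not overlap in Gnas-eKO either, at 7.19 to 12.0 CPM in Con and 12.9 to 40.7 CPM in BCC, and was not called there.

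Markers of other cell types moved with the leukocyte genes in part, and their part in the results was not tested. For the counts below, 18.7% of all genes were called higher and 15.8% lower in PKI. The shares were 16.2% and 13.5% in SmoM2 and 1.46% and 0.165% in Gnas-eKO. The 6 fibroblast genes summed to 15.8 to 43.4 CPM in PKI Con and 84.4 to 145 CPM in PKI BCC (3 of 6 called higher), to 17.2 to 39.8 and 388 to 524 CPM in SmoM2 (2 of 6), and to 16.0 to 27.4 and 93.3 to 578 CPM in Gnas-eKO (1 of 6). These sums did not overlap in any of the 3 models, but most of each was Dcn, a matrix proteoglycan gene, at 363 to 500 CPM in SmoM2 BCC. Of the 3 collagen genes, Col1a1 and Col3a1 did not overlap in PKI (0.569 to 5.21 CPM in Con and 5.45 to 17.5 CPM in BCC; 0.886 to 4.10 and 5.40 to 12.4 CPM), while Col1a2 did. In SmoM2 Col1a2 did not overlap (1.20 to 3.24 and 7.65 to 22.1 CPM), while Col1a1 and Col3a1 did. The 6 endothelial genes summed to 1.58 to 4.35 CPM in PKI Con and 4.60 to 6.75 CPM in PKI BCC, with 1 of 2 tested genes called higher. That endothelial gene passed the filter only with BCC libraries, as did 1 of the 3 fibroblast genes called in PKI. The 5 red blood cell genes summed to 2.73 to 6.80 CPM in PKI Con and 0.877 to 20.8 CPM in PKI BCC, overlapped and gave 0 calls of 3 tested. They were highest in Gnas-eKO BCC 1, at 272 CPM, the library that was also highest there for most leukocyte genes. The 8 keratinocyte genes summed to 51115 to 68027 CPM in SmoM2 Con and 34445 to 49679 CPM in SmoM2 BCC (2 called higher, 4 lower), and to 52716 to 64323 and 26603 to 46112 CPM in Gnas-eKO (0 called). In PKI these sums overlapped, with 2 called higher and 3 lower. Of 6 melanocyte genes, 4 fell in PKI and 0 rose, with sums of 156 to 204 CPM in Con and 73.5 to 120 CPM in BCC. Among leukocytes outside the 38 genes, the mast cell marker Mcpt4 was at 0 to 0.106 CPM in every library, the B cell genes Cd79a and Cd79b at 0 to 0.120 and 0 to 0.358 CPM, and the natural killer receptor gene Klrb1c at 0 to 0.504 CPM. The 4 natural killer and cytotoxic genes in the table summed to 0.0919 to 0.172 CPM in SmoM2 Con and 0.352 to 1.07 CPM in SmoM2 BCC. In PKI the same sum overlapped, at 1.01 to 1.44 CPM in Con and 0.877 to 1.65 CPM in BCC, and the 1 gene tested was not called. Of these 4, Gzmc, a granzyme gene, was tested in SmoM2 and called higher there, with 1 count in Con and 55 in BCC (0.302 to 0.974 CPM; edgeR adjusted p = 0.0028). Gzmc passed the filter there only with BCC libraries and made up most of the SmoM2 BCC sum. Prf1, Klrb1c and Klrd1 were each at 0 to 0.162 CPM in SmoM2 Con and 0 to 0.0907 CPM in SmoM2 BCC, which overlapped. Of 6 B cell genes, Ighm was tested and called higher in PKI (1.91 ± 0.61, edgeR adjusted p = 0.039), and of 6 granulocyte genes Cxcr2 was (1.91 ± 0.42, edgeR adjusted p = 0.0089). Ighm passed the filter only with BCC libraries, while Cxcr2 passed with the Con libraries as well.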

How the data were processed

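Polyadenylated RNA of 21 mouse tail keratinocyte preparations (3 models, 3 Con and 4 BCC each) was sequenced from stranded libraries. Per the submitters' processing notes, bcl2fastq 2.20, cutadapt 1.18, STAR 2.7.0f, Partek (version not given) and the mm10 build were used. The authors deposited estimated counts per gene (33.06% of values not whole), rounded here to whole numbers. The lowest sum of a gene over all libraries was 10. They also deposited a normalized signal, which equalled the count times 1 factor a library plus 0.001. The counter and its strand setting are not given in the sources used here. Totals were 16645858 to 22251132 counts, so that 3 counts were 0.134 to 0.190 CPM. Intervals cover counting error only.

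BCC was compared with Con within each model, and changes between pairs of models, with edgeR 4.0.16 (R 4.3.3; filterByExpr defaults, TMM, quasi-likelihood test), adjusted by Benjamini-Hochberg over all genes tested at a threshold of 0.05. Interactions used the libraries of both models. Genes with 0 Con counts are given as a bound against 3 counts over the group, and those with 1 to 3 as a ratio with its exact 95% interval. Gene positions and exon overlaps are from GENCODE M21 (23048 table genes matched) and promoters from RefSeq. Alternatives were size factors by the RLE method, DESeq2 1.42.0, no filter, members with a mean of at least 1 CPM, a replicate block, a joint fit of all libraries, limma 3.58.1 on log2(signal + 0.5) of the deposited values, and leaving out each library. No replicate pair agreed within sampling noise (lowest chi-square per degree of freedom 8.937). The tests were tested on simulated counts.

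Members and companion lists were chosen with earlier results of these data known. Every member is accounted for; values per library are given for genes called in a model or an interaction and for defining markers of each lineage, and ranges for Nkg7, Fcer1g and Cd14. Of 112 companion genes, 96 were in the table. The result of 1 companion list is not reported here.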

Additional observations from a re-analysis of the deposited data

Results flagged for a closer look

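In 13 of the 114 groups of 4 BCC libraries examined (38 genes in 3 models), 1 library stood far from the other 3. Chance puts about 1 in 20 independent groups past the limit used, but these groups share their libraries and include genes near 0 counts, so the 2 figures were not compared. The library was PKI BCC 1 for 8 genes, each time as the highest. It read 7.52 CPM for Ctla4, 2.46 CPM for Gzmb, 12.5 CPM for Itgax, 3.02 CPM for Fcer1g, 8.08 CPM for Lyz2, 4.55 CPM for Cd68, 9.26 CPM for Spi1 and 1.02 CPM for Csf3r. Of these 8 genes, 5 are on the myeloid list, and PKI BCC 1 also had the lowest Trdc level of its group. The highest library was Gnas-eKO BCC 3 for Cd3d (1.01 CPM) and Trdc (4.13 CPM), SmoM2 BCC 3 for Fcer1g (0.788 CPM) and Csf3r (0.603 CPM), and SmoM2 BCC 2 for Cd8a (0.337 CPM).

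The BCC change differed between models for 21 leukocyte genes when PKI was set against SmoM2, where 12.6% of all genes were called higher and 12.3% lower. In each of the 21 the PKI change was the higher. Of these calls, 7 (Gzmb, Mpeg1, Cd28, Tyrobp, Ctla4, Cd4, Cd69) were lost when 1 library or another was left out, with adjusted p-values up to 0.24 for Gzmb and 0.17 for Cd28. The log2 differences were 2.37 for Ptprc, 2.86 for Coro1a, 2.62 for Laptm5, 2.73 for Cd52 and 2.70 for Cd53 among the general leukocyte genes. Among T cell and granule genes they were 3.67 for Cd2, 5.11 for Cd28, 1.50 for Trbc2, 6.67 for Cd4, 4.85 for Icos, 6.37 for Ctla4, 3.73 for Cd69 and 5.44 for Gzmb. The sizes for Cd28, Cd4, Ctla4 and Gzmb depend on the prior count, since PKI Con held at most 3 counts of each. Among myeloid and Langerhans genes they were 3.31 for Itgax, 1.85 for Itgam, 2.13 for Csf1r, 2.10 for Tyrobp, 2.77 for Mpeg1, 2.93 for Ctss, 2.77 for Spi1 and 2.60 for Cd207. Adjusted p-values ran from 0.0010 to 0.040 (edgeR's quasi-likelihood test).

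Against Gnas-eKO, which was compared with the same PKI libraries, the PKI change was higher for 10 genes, where 4.49% of all genes were called higher and 4.57% lower. Of the 10 calls, 3 (Icos, Itgax, Itgam) held under every alternative and left-out library. The log2 differences were 1.69 for Ptprc, 2.29 for Coro1a, 2.25 for Laptm5, 3.09 for Cd2, 5.06 for Cd4, 4.49 for Icos, 3.00 for Cd69, 2.97 for Itgax, 1.94 for Itgam and 1.96 for Cd207, with edgeR adjusted p-values from 0.0093 to 0.049. Model, batch and day cannot be told apart in these differences.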

How the results depend on the processing

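In PKI, 25 of the 30 calls held under all alternatives and left-out libraries; the exceptions were Cd3e, Cd3g, Cd68, Irf8 and Spi1. In SmoM2, Itgam and Cd68 held and Lck did not. Leukocyte genes called higher in SmoM2 numbered 4 with no filter (Cd68, Cybb, Foxp3, Lck) against 2, and the median over those with a mean of at least 1 CPM was 0.0049. In Gnas-eKO, all genes called numbered 1535 with DESeq2 and 2644 in the joint fit against 267. There the joint fit called 3 leukocyte genes higher (Cd68, Ctla4, Foxp3), and DESeq2, no filter and the joint fit each called 1 lower, Itgam. Limma gave medians of 1.96 in PKI and 1.82 for PKI against SmoM2, on the scale of its added constant. For PKI against Gnas-eKO, DESeq2 called 2389 genes against 1564, and DESeq2 and limma each called 18 leukocyte genes higher against 10. For Gnas-eKO against SmoM2, DESeq2 called 212 genes and the joint fit 66 against 30. The causes were not tested.

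With single libraries left out, leukocyte genes called higher ran from 1 to 2 in SmoM2 (lower 1 to 2), 0 to 1 in Gnas-eKO (lower 0 to 1; all genes 0 without Con 1 to 1910 without BCC 2) and 25 to 30 in PKI, whose median ran from 2.47 to 3.30. For PKI against Gnas-eKO, 4 to 16 leukocyte genes and 673 to 2512 genes in all were called, and for Gnas-eKO against SmoM2 14 to 79 genes. Trdc in PKI ran from -0.54 to 0.047, reversing to 0.047 (adjusted p = 0.94 in edgeR) without PKI Con 1.

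Replicate numbers did not pair the libraries: same-number correlations ran from -0.168 to -0.086 in SmoM2, 0.0506 to 0.204 in Gnas-eKO and -0.0442 to 0.305 in PKI. With the replicate block, 1 leukocyte gene was called higher in SmoM2 and 32 in PKI, 15 were called for PKI against Gnas-eKO (925 genes in all), and 135 genes in all were called in Gnas-eKO.

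Low counts limit most T cell, granule and neutrophil genes outside PKI BCC: 15 of the 38 in SmoM2 and 12 in Gnas-eKO were not tested, and a level under 0.134 to 0.190 CPM cannot be told from 0. In PKI the size of the rise of 6 called genes rests on at most 3 Con counts. Leukocytes lost or kept by the overnight digestion were not measured.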

Other observations

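Some single genes stood higher in the PKI controls than in the controls of the other models. Cd7, a T and natural killer cell antigen, ran from 1.33 to 2.65 CPM in PKI Con and was at most 0.216 CPM in a SmoM2 Con or Gnas-eKO Con library. The perforin gene Prf1 ran from 0.506 to 0.823 CPM in PKI Con against at most 0.0575 CPM, Nkg7 from 0.443 to 0.658 CPM against at most 0.115 CPM, and Trdc from 2.47 to 5.56 CPM against at most 2.05 CPM. Trdv4, a delta chain variable segment, ran from 1.01 to 2.11 CPM in PKI Con and reached 0.811 CPM in the other controls. Thy1 went the other way, at 21.0 to 40.7 CPM in PKI Con, 106 to 137 CPM in SmoM2 Con and 128 to 135 CPM in Gnas-eKO Con. Il2rb (1.08 to 2.33 CPM against at most 0.461 CPM), Klrk1 (0.633 to 0.961 CPM against at most 0.392 CPM) and Cd3e (1.33 to 2.58 CPM against at most 0.811 CPM) stood apart as well. Others did not: Gzmb was at 0.101, 0 and 0 CPM in PKI Con and at 0.0460, 0 and 0.108 CPM in SmoM2 Con. Cd8a ran from 0 to 0.253 CPM in PKI Con and from 0 to 0.162 CPM in SmoM2 Con. These genes were picked after their values were seen, no test was made, and model, batch and day cannot be told apart.

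Ly6c2, a marker of inflammatory monocytes and some T cells, was highest in SmoM2 BCC, at 1.93 to 3.26 CPM, and was called higher there against SmoM2 Con (log2 fold change 2.65, edgeR adjusted p = 0.0031). Ly6c2 passed the filter there only with BCC libraries. In every other group it was at most 0.781 CPM. In Gnas-eKO BCC 3 the beta chain constant regions stood at 32.8 CPM for Trbc2 and 24.6 CPM for Trbc1, a library that was also the highest of its group for Trdc and Cd3d.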
